A study of Homo sapiens with 6 samples.

Results

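The genes described here are 49 genes that drive or mark the cell division cycle, from the D-type cyclins of G1 to the kinases, kinetochore proteins and spindle motors of mitosis. They were chosen by symbol, from a list drawn up with earlier results of these data known, and all 49 were found among the 20330 Ensembl genes listed in each library. By the phase in which their products act, 8 were placed in G1, 7 at the G1/S transition and in S, and 34 in G2 and mitosis (G2/M). RNA sequencing had been done on U251 cells, an established human glioblastoma line grown without any drug treatment that the labels mention. One group of 3 libraries came from U251 cells with stable overexpression of XLOC013218, a long noncoding RNA, and the other group of 3 from U251 control cells. What the control cells carry, how many clones were used and which promoter drove the RNA are not given in the sources used here, so the p-values measure the spread between these libraries, which may in part be technical.

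Dividing cells pass from G1 into S when cyclin D with CDK4 or CDK6, and then cyclin E with CDK2, phosphorylate the retinoblastoma protein and free the E2F factors. Cyclin A with CDK2 or CDK1, and then cyclin B with CDK1, carry the cell through S and G2 into mitosis. There the spindle checkpoint holds back the anaphase-promoting complex until every chromosome is attached. Genes of G2/M are transcribed late in the cycle, with B-MYB and FOXM1 among their activators, so in unsynchronised cells their mRNA also follows the share of cells in G2 and mitosis. Glioblastomas often lose CDKN2A and CDKN2B, which encode INK4 inhibitors of CDK4 and CDK6.

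None of the 46 cell cycle genes that could be tested passed the test between overexpressing and control cells. Levels were FPKM, that is, fragments scaled to transcript length and to all mapped fragments of the library, a unit that allows levels of different genes to be compared. Differences were taken on log2(FPKM + 1) and tested with limma over all 11704 genes with a mean of at least 1 FPKM, at an adjusted p of 0.05. Across all tested genes 61 passed, which is 0.521%, with 37 (0.316%) higher in overexpressing cells and 24 (0.205%) lower. On TPM values, which sum to the same total in every library, 30 were higher and 31 lower. At an unadjusted limma p under 0.05 there were 3 cell cycle genes higher and 0 lower, beside 5.79% and 6.92% of all tested genes. The lowest adjusted p of any member, for FOXM1, was 0.176 in limma.

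The size of difference that the libraries leave possible was small for these genes. Their log2 fold changes, overexpression minus control, ran from -0.13 for E2F1 to 0.17 for FOXM1, with a median of 0.09 beside -0.0008 over all tested genes. The standard errors lay between 0.04 and 0.14. No 95% interval, each taken for its gene alone, reached above 0.40, the upper end for CCNE2, or below -0.28, the lower end for ASPM. These ends correspond to 1.32-fold and 0.824-fold on FPKM + 1, not on FPKM itself.

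Although no single gene passed, the differences were mostly on one side. The log2 fold change was positive in 39 of the 46 genes and negative in 7, while 49.7% of all tested genes had a positive one. In 10 genes the 3 overexpression values all lay above the 3 control values, beside 8.81% of all tested genes, and in 0 did they all lie below, beside 10.1%. The 10 were FOXM1, CDK6, NUF2, KIF20A, CDC20, CCNA2, CCNB1, AURKB, BUB1B and CKS2. These genes are expressed together in dividing cells and are not independent of each other, so the counts are a description. The overexpression replicate 2 library weighed on the size of the differences: without it the median log2 fold change of the 46 genes was 0.05. Then 36 were positive, as they also were without control replicate 2 or without overexpression replicate 3.

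**Figure D1:**
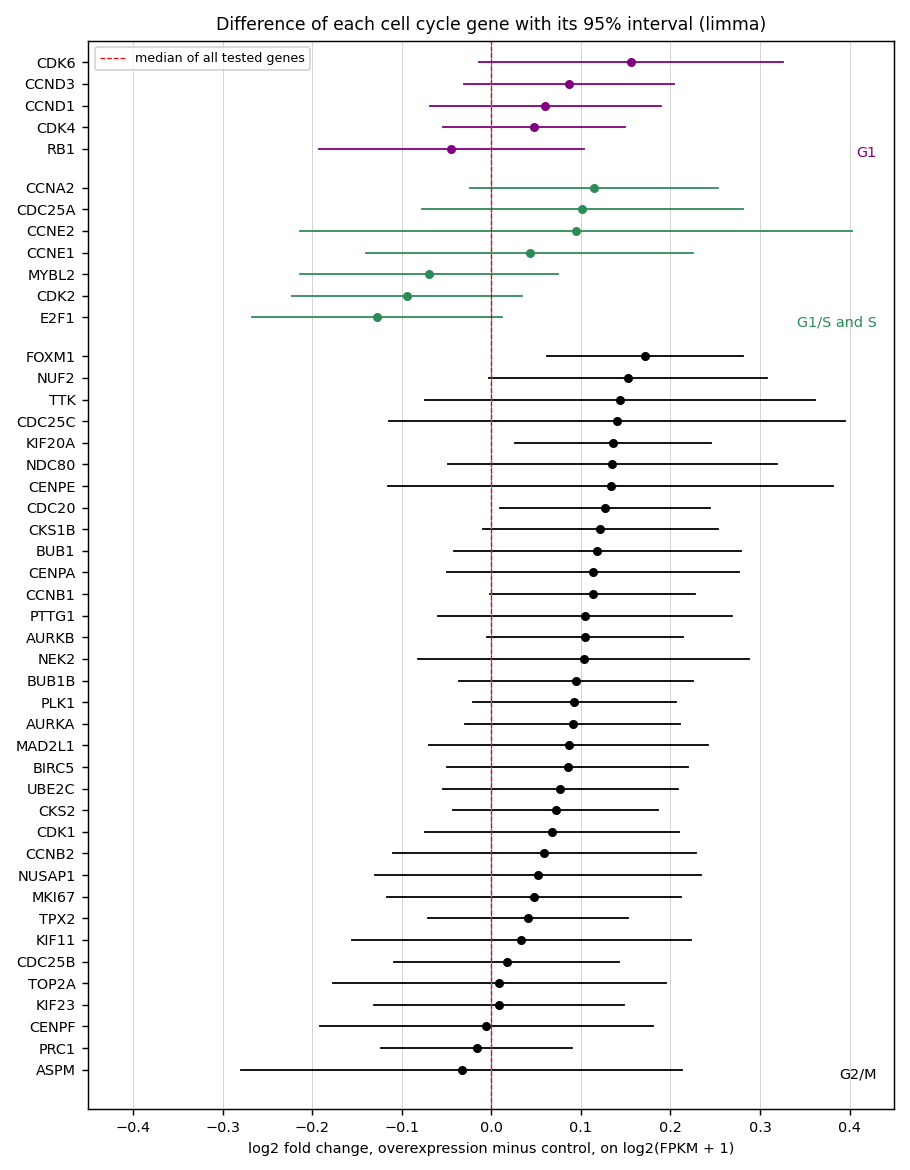
Log2 fold change, overexpression minus control on log2(FPKM + 1), of the 46 tested cell cycle genes by phase, with points for the estimate and lines for the 95% interval from limma. FOXM1 stands highest at 0.17 and E2F1 lowest at -0.13, and the dashed line marks the median of all tested genes, -0.0008.

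Summed FPKM over the Ensembl genes was between 614027 and 621922 in overexpression libraries, against 598683 to 620473 in control libraries. The share of genes listed at 0 was between 21.5% and 21.9% in overexpression libraries, against 22.6% to 23.3% in control libraries, so the groups did not overlap in it. Depth in reads is unknown, since FPKM carries no read totals. Of 7 glioma and astroglial markers, VIM, CD44, SOX2 and NES were expressed in every library, with NES lowest at 77.7 FPKM, and S100B stayed under 1 FPKM. FABP7 was at 4.19, 3.15 and 3.86 FPKM in overexpressing cells, against 3.56, 2.68 and 2.70 FPKM in control cells, with overlap. Overexpression values were all below control values for SOX2 and for GFAP, which lay at 30.1, 14.4 and 20.4 FPKM in overexpressing cells, against 34.7, 46.0 and 44.1 FPKM in control cells (adjusted p = 0.107 in limma). The 7 listed markers of other cell types summed to between 1.14 and 1.36 FPKM in overexpression libraries, against 1.00 to 1.20 FPKM in control libraries, and EPCAM and MOG were listed at 0 in every overexpression library. Within that sum PTPRC was at 0.65, 0.39 and 0.52 FPKM in overexpressing cells, against 0.13, 0.17 and 0.15 FPKM in control cells. CDH5 was at 0.38, 0.27 and 0.31 FPKM in overexpressing cells, against 0.68, 0.55 and 0.46 FPKM in control cells. The groups of both were apart, in opposite directions, and PECAM1 was not analysed here. The part of these marker differences in the results was not tested. In bulk RNA, a different share of dividing cells and a different amount of mRNA per dividing cell cannot be told apart.

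In G1, U251 cells expressed cyclins D1 and D3 with CDK4 and had no listed signal for cyclin D2 or the INK4 inhibitors CDKN2A and CDKN2B. CDK4 (ENSG00000135446, chromosome 12), the main partner of D-type cyclins here by level, was at 226, 229 and 225 FPKM in overexpressing cells, against 229, 217 and 213 FPKM in control cells. The ranges overlapped, and the log2 fold change was 0.05 (SE 0.04, adjusted p = 0.721 in limma). CDK6 (ENSG00000105810, chromosome 7), the other kinase that binds D-type cyclins, was at 14.3, 12.8 and 12.7 FPKM in overexpressing cells, against 11.9, 11.6 and 11.8 FPKM in control cells. All 3 overexpression values were above the control values, but the difference of 0.16 (SE 0.08) did not pass (adjusted p = 0.433 in limma). Within each library CDK4 was 15.8 to 17.9 times as abundant as CDK6 in overexpressing cells, against 18.0 to 19.3 times in control cells, a ratio that was not tested.

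Cyclins D1 and D3, which couple growth signals to CDK4 and CDK6, were present at nearly equal levels. CCND1 (ENSG00000110092, chromosome 11) had 83.5, 91.1 and 81.0 FPKM in overexpressing cells, against 85.0, 79.3 and 80.4 FPKM in control cells. CCND3 (ENSG00000112576, chromosome 6) had 82.2, 80.7 and 83.6 FPKM in overexpressing cells, against 82.1, 75.6 and 74.4 FPKM in control cells. Both sets of ranges overlapped, and the ratio of CCND1 to CCND3 within a library lay between 0.97 and 1.13. CCND2, the third D-type cyclin, was listed at 0 in all 6 libraries.

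CDKN2A and CDKN2B, which encode the INK4 inhibitors p16 and p15 and lie side by side on chromosome 9, were also listed at 0 in all 6 libraries. So was CDKN2C, a further INK4 gene, while CDKN2D, the last of that family and like CDKN2C named after its values were seen, was at 24.99, 25.3 and 22.2 FPKM in overexpressing cells, against 22.4, 23.4 and 25.6 FPKM in control cells, with overlap. MTAP, a purine salvage enzyme encoded beside CDKN2A and named here after its values were seen, was at 77.0, 80.8 and 78.2 FPKM in overexpressing cells, against 76.2, 76.7 and 82.7 FPKM in control cells. So the neighbouring gene was expressed at about the same level in every library. RB1 (ENSG00000139687, chromosome 13), the retinoblastoma protein that CDK4 and CDK6 phosphorylate, averaged 33.3 ± 1.63 FPKM in overexpressing cells and 34.4 ± 2.19 FPKM in control cells (SD, n = 3 each). Over the 5 tested G1 genes the median log2 fold change was 0.06, with 4 positive and 1 negative.

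**Figure D2:**
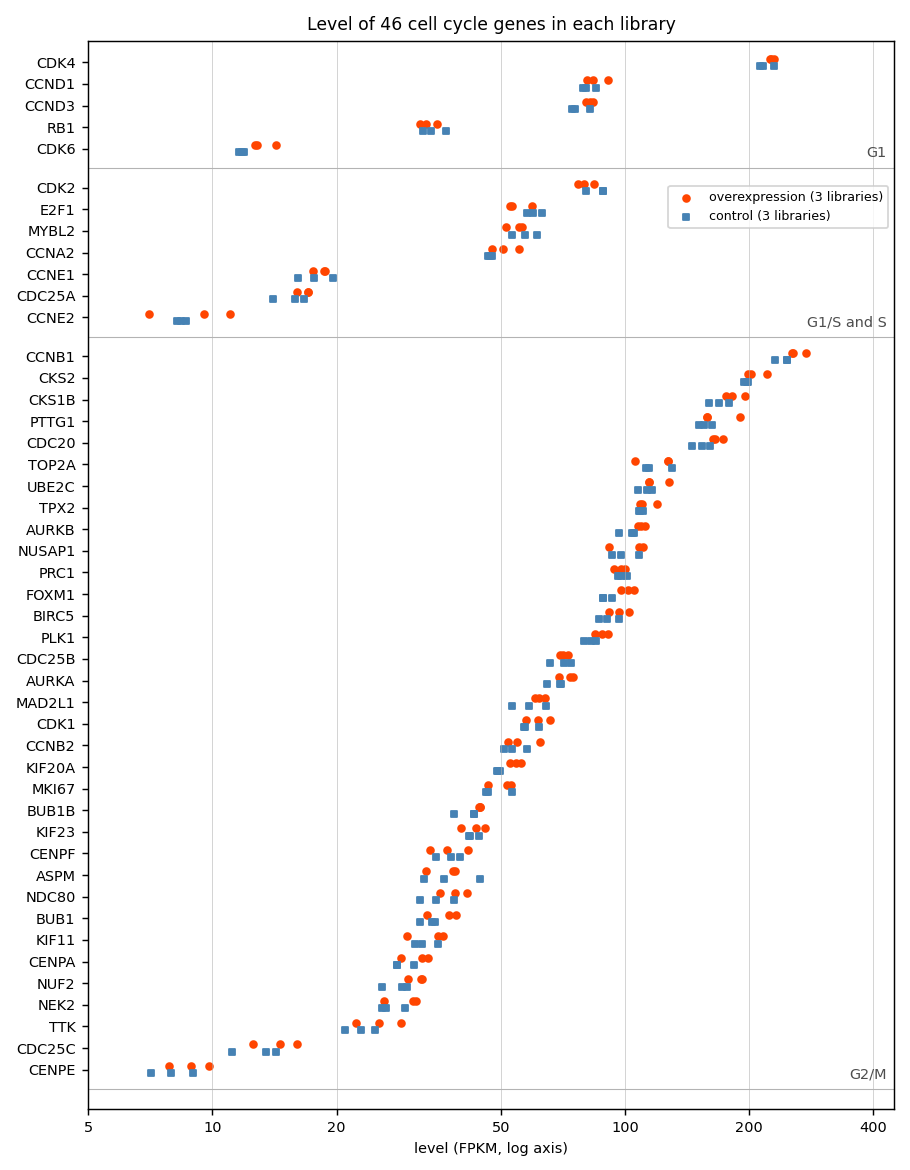
Level in FPKM on a log axis of the 46 tested cell cycle genes in each library, grouped by phase and sorted by mean level, with overexpression libraries as circles above control libraries as squares. CCNB1 leads at 231 to 275 FPKM and CENPE is lowest at 7.08 to 9.84 FPKM, and the 2 groups of points overlap for 36 of the 46 genes.

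At the G1/S transition and in S, the activators E2F1, MYBL2 and CDK2 were on the low side in overexpressing cells and cyclin A2 on the high side, none past the test. E2F1 (ENSG00000101412, chromosome 20), the transcription factor that switches on S-phase genes, was at 59.5, 52.6 and 53.2 FPKM in overexpressing cells, against 62.9, 57.8 and 59.9 FPKM in control cells. Overexpression replicate 1 lay within the control range, and the log2 fold change was -0.13 (SE 0.06, adjusted p = 0.435 in limma). CDK2 (ENSG00000123374, chromosome 12), the kinase of cyclins E and A, was at 79.8, 77.0 and 84.3 FPKM in overexpressing cells, against 88.6, 88.4 and 80.5 FPKM in control cells. MYBL2, which encodes B-MYB, averaged 54.4 ± 2.50 FPKM in overexpressing cells and 57.1 ± 4.02 FPKM in control cells (SD, n = 3 each).

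Cyclin A2 acts in S and again in G2, and it was the only gene at G1/S and S with groups apart. That is 14.3% of these genes, beside 8.81% of all tested genes with overexpression higher. CCNA2 (ENSG00000145386, chromosome 4) was at 47.7, 55.4 and 50.6 FPKM in overexpressing cells, against 47.2, 47.5 and 46.7 FPKM in control cells (log2 fold change 0.11, SE 0.06, adjusted p = 0.488 in limma). Overexpression replicate 1 lay just above the highest control value and replicate 2 well above it. CCNE1, the first cyclin E, was at 18.7, 18.8 and 17.5 FPKM in overexpressing cells, against 19.6, 16.1 and 17.6 FPKM in control cells. CCNE2, the other cyclin E, ran from 7.01 to 11.0 FPKM in overexpressing cells and enclosed the control values of 8.19 to 8.65 FPKM. It had the widest interval of all members, from -0.21 to 0.40.

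CDC25A, the phosphatase that activates CDK2, averaged 16.7 ± 0.598 FPKM in overexpressing cells and 15.5 ± 1.37 FPKM in control cells (SD, n = 3 each). The 7 genes had 4 positive and 3 negative log2 fold changes and a median of 0.04. That median rested on single libraries: it was -0.02 without control replicate 2, -0.04 without overexpression replicate 3 and 0.11 without control replicate 1.

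In G2/M, 31 of the 34 genes had a positive log2 fold change, with a median of 0.09, and 8 had all overexpression values above all control values, which is 23.5% of them beside 8.81% of all tested genes. FOXM1 (ENSG00000111206, chromosome 12), the forkhead factor that activates G2/M genes, was at 102, 105 and 97.7 FPKM in overexpressing cells, against 88.7, 93.0 and 88.6 FPKM in control cells. The lowest overexpression value was above the highest control value, and the log2 fold change was 0.17 (SE 0.05, 95% interval 0.06 to 0.28, adjusted p = 0.176 in limma). KIF20A (ENSG00000112984, chromosome 5), a kinesin of the central spindle, was at 52.6, 55.9 and 54.4 FPKM in overexpressing cells, against 49.7, 49.1 and 49.1 FPKM in control cells. Its difference of 0.14 (SE 0.05) had a limma adjusted p of 0.288. CDC20 (ENSG00000117399, chromosome 1), the activator of the anaphase-promoting complex that the checkpoint inhibits, was at 166, 173 and 163 FPKM in overexpressing cells, against 161, 154 and 145 FPKM in control cells (log2 fold change 0.13, SE 0.05, adjusted p = 0.355 in limma).

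Among the genes of mitotic entry, CCNB1 (ENSG00000134057, chromosome 5), the cyclin that activates CDK1 at entry into mitosis, was the most abundant of all members. It was at 256, 275 and 255 FPKM in overexpressing cells, against 247, 248 and 231 FPKM in control cells, and did not pass (log2 fold change 0.11, SE 0.05, adjusted p = 0.394 in limma). Its range did not meet that of CDK4, the next gene in the order, whereas CDK4 overlapped CKS2, CKS2 overlapped CKS1B, CKS1B overlapped PTTG1 and PTTG1 overlapped CDC20. CCNB2, the other B-type cyclin, was at 52.0, 62.1 and 54.8 FPKM in overexpressing cells, against 57.7, 53.1 and 50.9 FPKM in control cells. CDK1 (ENSG00000170312, chromosome 10), the kinase of both, was at 57.5, 65.8 and 61.5 FPKM in overexpressing cells, against 57.2, 56.9 and 62.0 FPKM in control cells. By level, CCNB1 was 4.14 to 4.45 times its kinase in overexpressing cells, against 3.72 to 4.36 times in control cells.

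CKS2 and CKS1B, small proteins that bind CDKs, stood just below CCNB1 and CDK4 in level. CKS2 averaged 207 ± 12.3 FPKM in overexpressing cells and 197 ± 1.88 FPKM in control cells, and CKS1B averaged 184 ± 10.3 FPKM in overexpressing cells and 169 ± 9.30 FPKM in control cells (SD, n = 3 each). CKS1B and PTTG1 have near-identical copies elsewhere in the genome, and reads shared with those copies make their values uncertain. The phosphatases CDC25B and CDC25C, which activate CDK1, averaged 71.2 ± 1.67 and 14.4 ± 1.78 FPKM in overexpressing cells, against 70.4 ± 4.28 and 13.0 ± 1.62 FPKM in control cells (SD, n = 3 each). PLK1, AURKA and NEK2, kinases of the centrosome and spindle poles, had log2 fold changes of 0.09, 0.09 and 0.10 and limma adjusted p of 0.494, 0.539 and 0.655. All 11 genes of mitotic entry had a positive log2 fold change, from 0.02 for CDC25B to 0.17 for FOXM1, beside 49.7% of all tested genes. In 3 of them (27.3%) all overexpression values lay above all control values, beside 8.81% of all tested genes.

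The checkpoint and kinetochore genes had the highest median of the roles with at least 5 genes, 0.12, with 8 of 9 positive. NUF2 (ENSG00000143228, chromosome 1), a subunit of the NDC80 complex that binds microtubules, was at 29.8, 32.2 and 32.0 FPKM in overexpressing cells, against 28.9, 25.8 and 29.7 FPKM in control cells (log2 fold change 0.15, SE 0.07, adjusted p = 0.395 in limma). Overexpression replicate 1 lay just above the highest control value, so the groups were barely apart. NDC80, the partner subunit, was at 35.6, 38.7 and 41.5 FPKM in overexpressing cells, against 31.8, 34.9 and 38.5 FPKM in control cells, with overlap. BUB1B, which encodes the checkpoint protein BUBR1, was at 44.4, 44.5 and 44.4 FPKM in overexpressing cells, against 43.1, 38.6 and 43.1 FPKM in control cells. BUB1, MAD2L1 and TTK, further checkpoint proteins, overlapped between groups, with log2 fold changes of 0.12, 0.09 and 0.14. CENPA, the histone H3 variant of centromeres, averaged 31.4 ± 2.43 FPKM in overexpressing cells and 28.9 ± 1.59 FPKM in control cells (SD, n = 3 each). CENPE, a kinetochore kinesin, was the least abundant tested member, at 7.85, 9.84 and 8.88 FPKM in overexpressing cells, against 7.08, 7.92 and 8.97 FPKM in control cells. CENPF, a large kinetochore protein, had a log2 fold change of -0.0054 (SE 0.08).

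Among the genes of anaphase and of the chromosomal passenger complex, AURKB (ENSG00000178999, chromosome 17), the kinase that corrects faulty attachments, was at 112, 109 and 108 FPKM in overexpressing cells, against 105, 104 and 96.9 FPKM in control cells (log2 fold change 0.10, SE 0.05, adjusted p = 0.411 in limma). BIRC5, which encodes survivin of the same complex, was at 91.5, 102 and 96.9 FPKM in overexpressing cells, against 96.8, 90.5 and 86.8 FPKM in control cells. The groups of AURKB were apart and those of BIRC5 overlapped. PTTG1, which encodes securin, was at 158, 190.4 and 158 FPKM in overexpressing cells, against 163, 156 and 152 FPKM in control cells, so that overexpression replicate 2 alone lay outside the control range. UBE2C, the ubiquitin-conjugating enzyme of the anaphase-promoting complex, was likewise highest in overexpression replicate 2, with 114, 128 and 114 FPKM in overexpressing cells, against 116, 113 and 108 FPKM in control cells.

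By median log2 fold change, spindle and cytokinesis genes and chromosome structure genes differed least of the G2/M roles, both at 0.03, though KIF20A among them stood at 0.14. MKI67 (ENSG00000148773, chromosome 10), the proliferation marker Ki-67, was at 46.6, 51.6 and 52.9 FPKM in overexpressing cells, against 46.7, 46.2 and 53.3 FPKM in control cells (log2 fold change 0.05, SE 0.07, 95% interval -0.12 to 0.21, adjusted p = 0.841 in limma). TOP2A (ENSG00000131747, chromosome 17), the topoisomerase that untangles sister chromatids, was at 106, 127 and 127 FPKM in overexpressing cells, against 112, 115 and 130.3 FPKM in control cells. All 3 overexpression values of MKI67 lay within its control range, while for TOP2A overexpression replicate 1 lay below every control value and control replicate 3 above every overexpression value. Of the 7 spindle and cytokinesis genes only KIF20A had groups apart, which is 14.3% of them beside 8.81% of all tested genes with overexpression higher. PRC1, a microtubule bundler of the midzone, KIF23, its kinesin neighbour there, and TPX2, an activator of AURKA, had log2 fold changes of -0.02, 0.0083 and 0.04, and NUSAP1, a spindle protein, one of 0.05. KIF11, the motor that separates spindle poles, averaged 33.7 ± 3.54 FPKM in overexpressing cells and 32.8 ± 2.16 FPKM in control cells (SD, n = 3 each).

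The sequences before the start sites of these genes hold motifs that differ between the phases and that played no part in the choice of genes. Promoters of 39 of the 49 genes were matched by symbol in a RefSeq table (GRCh38.p14, 250 bases before to 50 after the start), and 3 motifs were counted on both strands: the cell cycle homology region, a site of the DREAM and B-MYB complexes (TTTGAA or TTTAAA), the CCAAT box of NF-Y, and an E2F site (TTTCCCGC, TTTCGCGC, TTTGCCGC or TTTGGCGC). A gene with several listed starts was counted if any of them held the motif. The first motif was found in 25 of 28 G2/M promoters (89.3%), 1 of 5 at G1/S and S and 0 of 6 in G1, against 27.9% of all 27305 genes of the table and 21.2% of the 9445 tested genes in it. CCAAT was found in 24 of 28 G2/M promoters (85.7%), 3 of 5 at G1/S and S and 1 of 6 in G1. It was in 39.7% of all genes and 44.2% of the tested ones. Both together were in 21 of the 28 G2/M promoters, against 12.7% of all genes and 11.4% of the tested ones. E2F letters were in 3 of 28, 2 of 5 and 0 of 6, against 3.99% of all genes and 6.89% of the tested ones. A match is only a run of letters, and no binding was measured here. Among G2/M genes with groups apart, BUB1B and NUF2 had no CCAAT, AURKB lacked the first motif, CKS2 held both, and FOXM1 had no matched promoter. ASPM, CENPF and TOP2A, with log2 fold changes of -0.03, -0.0054 and 0.0091, also held both. Whether motifs go with the differences was not tested. The stretches of 200 bases before the start given next, with motif matches on either strand in capitals, show 3 G2/M genes that hold both and whose groups did not overlap. As a contrast, the G1 gene CDK4 holds none of the motifs.
CDC20: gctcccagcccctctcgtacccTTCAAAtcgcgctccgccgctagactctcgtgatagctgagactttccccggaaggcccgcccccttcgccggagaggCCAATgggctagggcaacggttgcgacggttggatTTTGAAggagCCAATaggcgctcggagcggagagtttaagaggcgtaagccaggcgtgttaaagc
KIF20A: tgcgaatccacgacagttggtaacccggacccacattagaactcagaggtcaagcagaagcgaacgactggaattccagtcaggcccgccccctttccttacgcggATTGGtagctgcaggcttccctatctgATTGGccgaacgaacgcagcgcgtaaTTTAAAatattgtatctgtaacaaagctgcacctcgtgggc
CCNB1: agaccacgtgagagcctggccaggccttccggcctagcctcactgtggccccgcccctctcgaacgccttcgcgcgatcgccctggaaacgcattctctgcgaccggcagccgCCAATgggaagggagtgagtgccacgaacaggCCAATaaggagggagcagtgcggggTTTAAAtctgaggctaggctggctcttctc
CDK4: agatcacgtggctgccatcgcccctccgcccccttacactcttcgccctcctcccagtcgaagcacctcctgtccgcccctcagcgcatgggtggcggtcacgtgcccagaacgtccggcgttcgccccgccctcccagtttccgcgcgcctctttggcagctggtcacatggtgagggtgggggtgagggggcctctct

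In CDC20 a CCAAT box began 55 bases before the start and TTTGAA 65 bases before it, with a further copy of each upstream. KIF20A carried TTTAAA 41 bases before the start and the reverse of CCAAT at 67 and 94. CCNB1 carried TTTAAA at 30 and CCAAT at 55 and 87 bases before the start. The stretches shown lie at chr1:43358781-43358980 on the plus strand for CDC20, chr5:138178912-138179111 on the plus strand for KIF20A, chr5:69166950-69167149 on the plus strand for CCNB1 and chr12:57752311-57752510 on the minus strand for CDK4 (GRCh38.p14).

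Across libraries, the G2/M genes did not stand at one level within the overexpression group. Their median deviation from the control mean, on log2(FPKM + 1), was 0.02, 0.16 and 0.08 in overexpression replicates 1 to 3, against 0.0083, -0.0063 and 0.0021 in control replicates 1 to 3. Overexpression replicate 1 was thus close to the control mean and replicate 2 farthest from it. Control deviations cancel out within each gene, since these libraries gave that mean, so the control medians are a poor measure of the spread between libraries. Of the 34 genes 22 were highest of all 6 libraries in overexpression replicate 2, beside 2017 of the 11704 tested genes. In control replicate 3, 16 were lowest, beside 2126 of the 11704. The G1 genes had medians of 0.04, 0.06 and 0.04 in overexpression replicates 1 to 3, against 0.06, -0.02 and -0.02 in control replicates 1 to 3, so that control replicate 1 was as high as overexpressing cells. Without overexpression replicate 2 the median log2 fold change was 0.06 for G2/M genes and 0.04 for G1 genes, against 0.09 and 0.06 with all libraries.

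**Figure D3:**
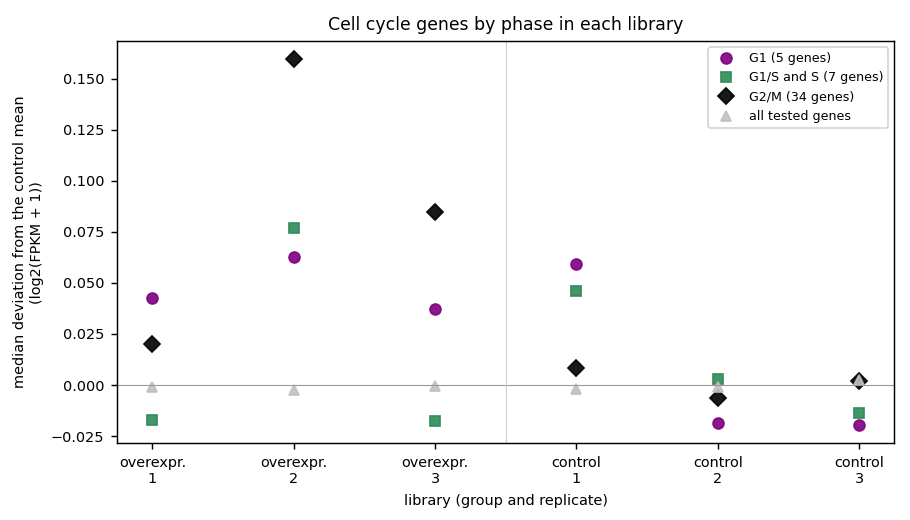
Median deviation from the mean of the 3 control libraries, on log2(FPKM + 1), of the tested genes of each phase in each library, with all tested genes as triangles. G2/M genes reach 0.16 in overexpression replicate 2 and 0.02 in overexpression replicate 1, and all tested genes stay between -0.0024 and 0.0024.

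Transcript length went with part of the spread among control libraries, though not for every gene: CDK6, with 11612 bases, was highest in control replicate 1. ASPM, a spindle pole protein with a longest annotated transcript of 10887 bases, was at 32.9, 38.2 and 38.8 FPKM in overexpressing cells, against 32.5, 36.3 and 44.4 FPKM in control cells. CDC25C, with 2137 bases, was at 14.6, 16.1 and 12.5 FPKM in overexpressing cells, against 14.2, 13.5 and 11.1 FPKM in control cells, the opposite order of control replicates 1 and 3. Over the 46 genes, Spearman's rho between the longest transcript in GENCODE 29 and the deviation from the mean of the library's own group was -0.21, -0.29 and 0.40 in overexpression replicates 1 to 3, and -0.51, -0.19 and 0.47 in control replicates 1 to 3. Over 11530 tested genes with a length it was -0.03, -0.08 and 0.10 in overexpression replicates 1 to 3, and -0.22, -0.16 and 0.29 in control replicates 1 to 3. These are descriptions across genes of one library, and genes are not independent. Between the groups, the log2 fold change had a rho of -0.25 with length over the members, and of 0.06 without control replicate 3. The median log2 fold change was 0.09 both in the 23 longer and in the 23 shorter members, and without control replicate 3 it was 0.09 in the longer and 0.06 in the shorter ones.

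**Figure D4:**
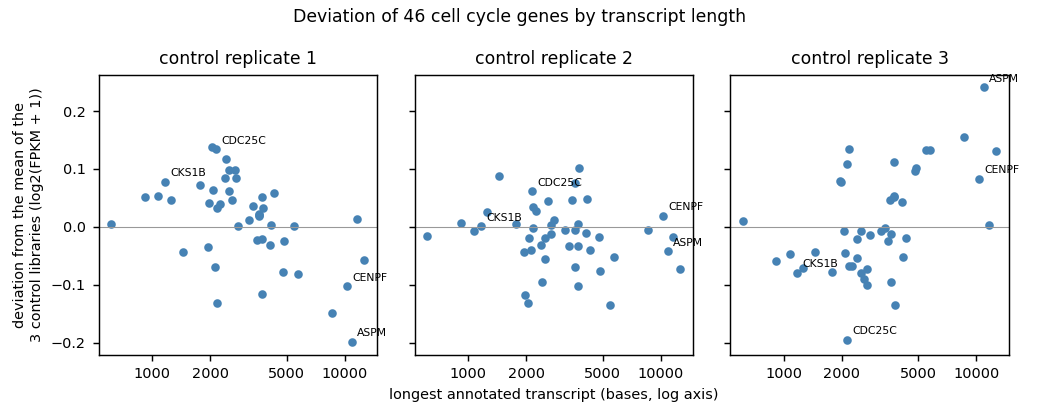
Deviation of the 46 tested cell cycle genes from the mean of the 3 control libraries, on log2(FPKM + 1), by longest annotated transcript in bases on a log axis, in each control library. ASPM, with 10887 bases, lies low in control replicate 1 and high in control replicate 3, and Spearman's rho with length is -0.51 and 0.47 in these libraries.

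The other genes of the cell cycle gave no calls. In 8 further lists holding 107 genes, 106 were tested, 0 passed the limma adjusted p in either direction, and the median log2 fold change was 0.04, with 70 positive. At an unadjusted limma p under 0.05, 4 of the 106 were higher and 2 lower, beside 5.79% and 6.92% of all tested genes. In 11 the groups were apart with overexpression higher and in 4 with overexpression lower, beside 8.81% and 10.1% of all tested genes. The lowest adjusted p was that of E2F4, a repressive E2F factor named after its values were seen, at 59.5, 58.7 and 57.2 FPKM in overexpressing cells, against 53.3, 50.9 and 52.1 FPKM in control cells (log2 fold change 0.16, SE 0.05, adjusted p = 0.193 in limma).

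Among brakes on the cycle, p21 was on the high side in overexpressing cells and did not pass. CDKN1A, which encodes the CDK inhibitor p21, was at 35.1, 33.5 and 37.7 FPKM in overexpressing cells, against 32.4, 31.9 and 30.4 FPKM in control cells (log2 fold change 0.16, SE 0.06, adjusted p = 0.322 in limma). The 4 tested of 5 CDK inhibitors had a median of 0.05. Among 11 pocket proteins, E2F and DP factors the median was 0.02, and RBL1, the pocket protein p107, differed most (log2 fold change 0.19, SE 0.12).

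Lists of mitotic machinery outside the 49 genes had medians from 0.01 to 0.05, below the 0.09 of all G2/M members together. The medians of the members' own spindle and cytokinesis genes and chromosome structure genes, both 0.03, lay within that range. The 29 further kinetochore and checkpoint genes had a median of 0.05 with 18 positive, and CENPU, a subunit of the inner kinetochore, was at 23.4, 25.4 and 26.6 FPKM in overexpressing cells, against 22.2, 21.1 and 21.2 FPKM in control cells (log2 fold change 0.21, SE 0.07, adjusted p = 0.232 in limma). All 9 further mitotic kinesins were positive, with a median of 0.05 and KIF18A, which damps chromosome oscillation, highest at 0.17. The 15 subunits and activators of the anaphase-promoting complex had a median of 0.03 with 8 positive, and ANAPC4, a scaffold subunit, differed most at 0.20 (SE 0.11). Condensin, with 8 genes, had a median of 0.02 with 4 positive and 4 negative, and its core subunit SMC2 differed most at -0.09. Cohesin and separase, with 14 genes, had a median of 0.01, and SGO2, a protector of centromeric cohesion, differed most at 0.18 (SE 0.11). The 16 further mitotic kinases, phosphatase regulators and cytokinesis genes had a median of 0.03, and PPP2R2D, a regulatory subunit of the phosphatase that opposes CDK1, differed most at -0.18 (SE 0.08, adjusted p = 0.363 in limma).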

How the data were processed

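RNA from 6 U251 libraries, 3 per group by title, had been sequenced. Per the labels' protocols, stranded libraries were made from poly(A)-selected RNA, whereas the series' design text describes cytoplasmic RNA without that selection, and the contradiction was not resolved. The authors deposited 1 table of gene FPKM values per library, rounded to 2 decimals, per the file headers and values. Per the submitters' processing notes, the build was hg18 and the tools were edgeR, RSEM 1.3.1, Cufflinks 2.2.1, Bowtie and TopHat, with no roles given; which tool gave the FPKM values and whether counting used strand are not given in the sources used here. Whether reads of overlapping antisense genes were told apart is therefore unknown.

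Ensembl identifiers were matched to symbols from a table of gene names, and loci with XLOC numbers were not used. Values were used as deposited, as log2(FPKM + 1), for 11704 genes with a mean of at least 1 FPKM. Of the 49 members 46 met this; the others were listed at 0 in every library. Groups were compared with limma 3.58.1 (limma-trend, two-sided, Benjamini-Hochberg adjustment over all tested genes, threshold 0.05) in R 4.3.3, tested on simulated data. There, 18% of genes changed by 0.25 in log2 and 66% of those changed by 0.5 passed. Smaller changes pass less often at the same spread, and no change as small as those of the members, at most 0.17, was simulated. The changed genes were drawn from all tested genes except those of low level. The members had smaller standard errors, with a median of 0.06 against 0.08 over all tested genes. The share that would pass at the members' sizes was therefore not measured. Other values came from Python 3.11.15, pandas 2.3.3, numpy 2.4.6 and scipy 1.17.1. Depth in reads is unknown, since the spacing of low FPKM values was too weak to recover whole reads, so no counting interval is given. An exact permutation test of 3 against 3 cannot give a p under 0.1.

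Members, phases and lists were chosen with earlier results of these data known. Named were the cyclins and their kinases, members with groups apart, the extremes of level and of difference in each phase, and the gene with the largest difference of each further list; RB1, CDKN2A, CDKN2B, E2F1, FOXM1, MYBL2, MKI67 and TOP2A were named in any case, and the other members were added, with their values known, so that each is accounted for. The alternatives tried were another pseudocount, no filter, TPM, quantile normalization, array quality weights, no trend, a replicate block and leaving out each library. One further list of genes is not reported here.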

Additional observations from a re-analysis of the deposited data

How the results depend on the processing

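No cell cycle member and no gene of the further lists passed under any of the 13 alternatives tried; the lowest limma adjusted p of a member was 0.148, for KIF20A with array quality weights. The median log2 fold change of the 46 members stayed between 0.07 and 0.09 under the 7 alternatives that keep all libraries and between 0.05 and 0.10 when 1 library was left out. Over all genes, 61 calls became 1 with no filter on low values or without a trend, 196 with array quality weights, and, when 1 library was left out, 1 without control replicate 1 or 2, 2 without control replicate 3, and 14, 60 and 23 without overexpression replicates 1, 2 and 3. Members at an unadjusted p under 0.05 and higher in overexpressing cells were 8 without overexpression replicate 1, 5 without control replicate 1 or 3, 4 without overexpression replicate 3 and 1 without control replicate 2 or overexpression replicate 2, against 3 with all libraries. No clear pairing by the replicate numbers of the titles was seen. Same-numbered libraries had correlations of deviations of -0.04, -0.06 and 0.05 for replicates 1 to 3. Among them only overexpression replicate 3 and control replicate 3 correlated best with each other. The highest correlations were 0.09, of overexpression replicate 2 with control replicate 1, and 0.06, of overexpression replicate 1 with control replicate 2. With the replicate number as a block 19 genes passed. When 1 library was left out, the median of the G1/S and S genes lay between -0.04 and 0.11 (-0.0355 to 0.1121), that of the CDK inhibitors between 0.0028 and 0.0963, that of the anaphase-promoting complex between -0.0074 and 0.0348 and that of the further kinesins between 0.0296 and 0.0839. With array quality weights the medians were 0.0097 for the anaphase-promoting complex and 0.099 for the further kinesins. The sign turned in 29 of 598 gene and setting pairs and in 12 members: CDC25B (-0.0137), CENPF (0.0292) and ASPM (0.0332) with array quality weights, KIF23 (-0.0056) and TOP2A (-0.005) after rescaling to TPM, and, when 1 library was left out, RB1 (-0.0835 to 0.0037), CCNE1 (-0.0225 to 0.1121), CCNE2 (-0.0355 to 0.2579), CCNB2 (-0.0122 to 0.1132), CDC25B (-0.0308 to 0.0547), CENPF (-0.0821 to 0.0651), KIF11 (-0.0211 to 0.1201), KIF23 (-0.0344 to 0.0586), TPX2 (-0.0004 to 0.0659), ASPM (-0.1326 to 0.0873), PRC1 (-0.0379 to 0.0089) and TOP2A (-0.0342 to 0.0952). The cause was not tested. With 3 libraries per group and depth in reads unknown, the widest 95% interval of a member, that of CCNE2, spanned -0.21 to 0.40.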
